A study of Rattus norvegicus with 9 samples.

Results

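The comparison set the fracture tissue of rats given either of the alendronate-bearing gels against that of rats given the gel alone. The 9 libraries came from the middle of the fractured femur. The group labelled Gel (also Control) received the plain gel and gave 3 libraries, the group labelled ALN+Gel received the gel with ALN, which stands here for alendronate, and gave 3, and the group labelled Mg-ALN@Gel (also BiMOF) received the gel with a magnesium and alendronate framework material and gave 3. All 9 libraries of the series entered, and the value of interest was the mean of the ALN gel mean and the Mg-ALN gel mean against the Gel mean, over all 15460 genes that passed a filter on low counts out of 35360 in the count table. The series title places the model in osteoporotic fracture, and every group carried both the fracture and the gel. No strain, age, sex, time after surgery or way of producing osteoporosis is stated in the labels, nor whether the 3 libraries of a group are separate animals, so the p-values measure only the spread between these samples.

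Alendronate is a nitrogen-containing bisphosphonate that binds bone mineral and is taken up mainly by osteoclasts, the cells that resorb bone. There it blocks farnesyl diphosphate synthase (encoded by Fdps), an enzyme of the mevalonate pathway, which makes the isoprenoids used to anchor small GTPases in membranes and, further on, cholesterol. When sterols in the endoplasmic reticulum run low, the transcription factor SREBP2 is known to raise the genes of this pathway together, and INSIG1 holds that factor back when sterols are plentiful.

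Total counts lay between 13388689 and 18763270 per library, and the common biological coefficient of variation was 51.4%, so single genes were measured with wide error. Mitochondrially encoded genes took 4.16% to 17.5% of the counts in Gel, 7.61% to 39.5% in ALN gel and 10.6% to 31.6% in Mg-ALN gel. Markers of skeletal muscle summed to 94.8, 109 and 11561 CPM (counts scaled to library size, with TMM factors) in Gel 1, 2 and 3, to 85.7 to 2939 in ALN gel and to 8.96 to 298 in Mg-ALN gel, so Gel 3 was the highest. Gel 1 stood apart in bone genes, with 2295 CPM of Bglap (osteocalcin, a protein of mature osteoblasts) against 234 and 185 CPM in Gel 2 and 3. Bone genes were detected in all 9 libraries, and Col1a1, the main chain of type I collagen, took 0.823% to 9.78% of the counts. Several results that rest on one of these libraries are given below with and without it. A gene given with no such value may still depend on 1 library.

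No gene passed the threshold of 0.05 in the joint comparison by edgeR's quasi-likelihood test with Benjamini-Hochberg adjustment, where the lowest adjusted p was 0.568. An unadjusted p under 0.05 was reached by 1307 genes, 8.45% of those tested, of which 867 (5.61%) were higher and 440 (2.85%) lower with the alendronate-bearing gels. That split was 690 higher and 610 lower when mitochondrially encoded genes were taken out before scaling, and it turned to 206 higher and 379 lower without Gel 3 and to 443 higher and 493 lower without Gel 2. It was also turned without ALN gel 2 (531 higher, 590 lower), with no low-count filter (688 and 973) and without the library of highest mitochondrial share in each group (570 and 676). By DESeq2 40 genes (0.259%) were higher and 18 (0.116%) lower at an adjusted p under 0.05, 58 in all, and by limma-voom 3. Each gel against Gel, and the gels against each other, also gave 0 genes in edgeR, with 8.2%, 9.31% and 9.19% of genes at an unadjusted p under 0.05 for ALN gel, Mg-ALN gel and their difference. DESeq2 called 102 genes higher (0.66%) and 31 lower (0.201%) for ALN gel and 24 higher (0.155%) and 27 lower (0.175%) for Mg-ALN gel. Between the gels it called 58 genes higher (0.375%) and 126 lower (0.815%) in Mg-ALN gel. In 600 genes (3.88%) all 6 alendronate-bearing libraries lay above all 3 Gel libraries, and in 274 genes (1.77%) all 6 lay below. The median log2 fold change over all genes was −0.03, and 47.3% of genes had a positive value. The ALN gel and Mg-ALN gel values below share the Gel libraries, so they are set side by side and their likeness is not used as a result. Because no gene passed in edgeR, "higher" and "lower" describe the sign of a measured difference.

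Genes of isoprenoid and sterol synthesis were mostly higher in the joint comparison. Of 21 measured genes, 20 had a positive joint log2 fold change, 11 were higher at an unadjusted p under 0.05 and 0 lower. In 9 genes all 6 libraries lay above Gel. Over all genes the shares were 5.61% for an unadjusted p under 0.05 on the higher side and 3.88% for all 6 libraries above Gel. Summed over the list, the level was 342 to 392 CPM in Gel, 562 to 672 CPM in ALN gel and 486 to 549 CPM in Mg-ALN gel, without overlap between the 3 groups. The median log2 fold change of the list was 0.50 in the joint comparison, 0.64 with ALN gel and 0.39 with Mg-ALN gel, against −0.03 over all genes.

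Idi1 encodes isopentenyl-diphosphate isomerase, which makes the allylic unit that FDPS extends. It measured 10.7, 12.8 and 12.1 CPM in Gel, 27.4, 36.0 and 27.1 CPM in ALN gel and 21.3, 30.1 and 25.5 CPM in Mg-ALN gel. Every alendronate-bearing library was above every Gel library, and the ranges of the 2 alendronate-bearing groups overlapped. The joint log2 fold change was 1.23 (SE 0.20), with an adjusted p of 0.568 by edgeR and of 0.000103 by DESeq2. The gene lies at 17:57976268-57984036 in the coordinates of the deposited table, whose build is not given in the sources used here, and overlaps Wdr37, so reads of the overlap may be shared.

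Fdps, which encodes the enzyme that alendronate inhibits, measured 43.3, 44.9 and 43.6 CPM in Gel, 78.2, 88.5 and 76.3 CPM in ALN gel and 74.4, 76.8 and 51.2 CPM in Mg-ALN gel. The 3 Gel values lay close together, and the lowest alendronate-bearing library, Mg-ALN gel 3, was still above them. The log2 fold change was 0.75 (SE 0.18), being 0.88 (SE 0.20) with ALN gel and 0.62 (SE 0.20) with Mg-ALN gel. The gene spans 2:188392858-188413219 in the deposited coordinates.

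Hmgcs1, the synthase that commits acetyl units to the pathway, measured 21.1, 24.99 and 32.1 CPM in Gel, 44.2, 57.2 and 45.1 CPM in ALN gel and 38.0, 49.9 and 45.0 CPM in Mg-ALN gel. Its log2 fold change was 0.84 (SE 0.20), with no overlap between Gel and the other libraries. Pmvk and Mvd, which encode phosphomevalonate kinase and the decarboxylase that follows it, were at 0.82 (SE 0.31) and 0.60 (SE 0.26).

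The branch toward cholesterol went the same way. Fdft1, squalene synthase, was at 0.67 (SE 0.18) and Sqle, squalene epoxidase, at 0.42 (SE 0.18), both with all 6 libraries above Gel. Cyp51, lanosterol demethylase, measured 38.0, 36.3 and 43.1 CPM in Gel, 67.7, 94.0 and 70.1 CPM in ALN gel and 60.2, 60.2 and 65.7 CPM in Mg-ALN gel, a log2 fold change of 0.82 (SE 0.17). Msmo1, which removes methyl groups from sterols, measured 13.2, 22.3 and 19.4 CPM in Gel, 43.6, 49.5 and 37.2 CPM in ALN gel and 31.6, 32.0 and 26.4 CPM in Mg-ALN gel. In Msmo1 the lowest ALN gel library was above the highest Mg-ALN gel library, and the log2 fold changes of 1.25 and 0.71 differed at an unadjusted p of 0.0476 in edgeR. Dhcr7, the last reductase of cholesterol synthesis, was at 0.82 (SE 0.23), with all 6 libraries above Gel. Sc5d, a desaturase of the late pathway, was at 0.79 with ALN gel and 0.21 with Mg-ALN gel, which differed at an unadjusted p of 0.0326 in edgeR. Lss, lanosterol synthase, was the 1 member with a negative value, −0.62 (SE 0.33), and its groups overlapped.

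**Figure D1:**
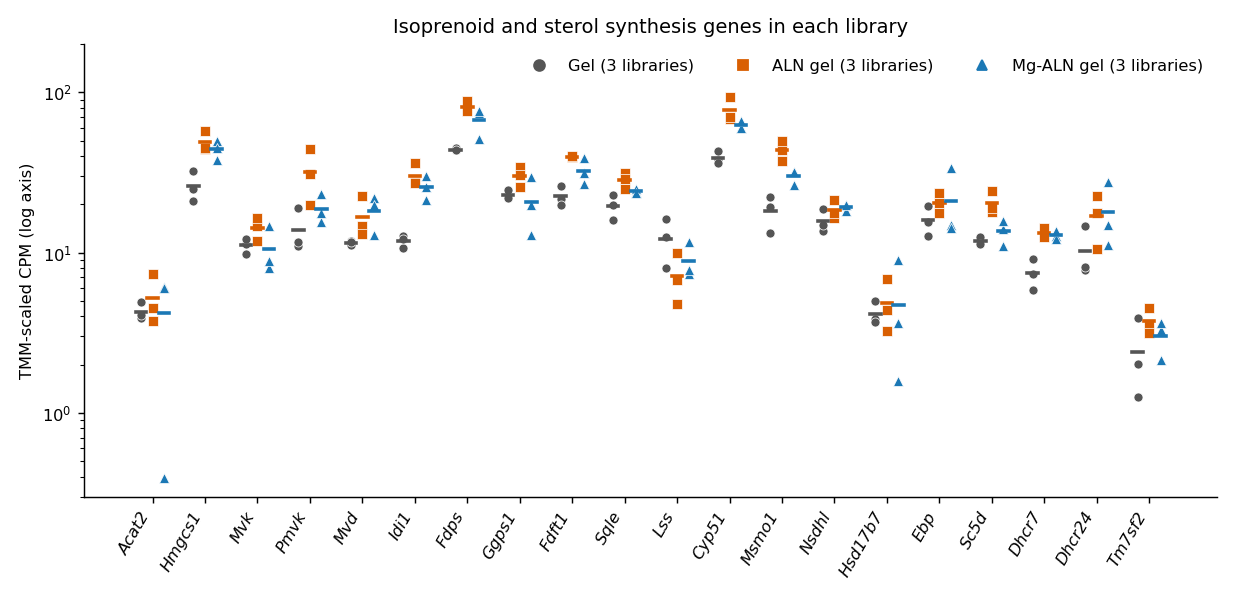
TMM-scaled CPM (log axis) of 20 of the genes of isoprenoid and sterol synthesis in each of the 9 libraries, ordered from the first step of the pathway. Each point is a library and each short bar a group mean. In 9 genes, among them Hmgcs1, Idi1, Fdps, Cyp51 and Msmo1, all 6 alendronate-bearing points lie above the 3 Gel points, while Lss lies lower.

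Levels per transcript length were read from the FPKM values that the authors deposited. In Gel, Ebp, Fdps and Pmvk had the highest levels of the 21 genes, at 15.1 ± 3.30, 14.5 ± 0.452 and 12.5 ± 3.78 FPKM (SD, n = 3), and their spreads left the order of these 3 unresolved. Idi1 was 13th in that order, at 4.19 ± 0.436 FPKM in Gel, 10.4 ± 1.89 FPKM in ALN gel and 8.96 ± 1.42 FPKM in Mg-ALN gel. Fdps was at 26.0 ± 2.45 FPKM in ALN gel and 22.1 ± 4.79 FPKM in Mg-ALN gel.

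Promoters of 5 of these genes are printed because the genes were higher together. They are the 250 bases before the start of each gene in RefSeq assembly GRCr8, 5′ to 3′ in the direction of the gene, and capitals mark the CCAAT motif, a box that binds the factor NF-Y, read on either strand as CCAAT or ATTGG. The positions are chr17:66547525-66547774 on the minus strand for Idi1, chr2:176804817-176805066 on the minus strand for Fdps, chr2:53382054-53382303 on the plus strand for Hmgcs1, chr16:29746863-29747112 on the plus strand for Msmo1 and chr4:30991443-30991692 on the plus strand for Cyp51, all in GRCr8.
Idi1: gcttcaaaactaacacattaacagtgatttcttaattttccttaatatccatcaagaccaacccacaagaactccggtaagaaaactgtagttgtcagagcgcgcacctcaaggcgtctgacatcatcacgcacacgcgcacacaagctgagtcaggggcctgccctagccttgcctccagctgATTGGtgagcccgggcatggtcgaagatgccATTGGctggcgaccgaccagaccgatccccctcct
Fdps: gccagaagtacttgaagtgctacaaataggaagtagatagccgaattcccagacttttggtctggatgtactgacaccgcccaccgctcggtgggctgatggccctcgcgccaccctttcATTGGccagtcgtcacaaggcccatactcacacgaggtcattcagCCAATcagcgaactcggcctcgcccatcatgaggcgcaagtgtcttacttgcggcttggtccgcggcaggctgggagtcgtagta
Hmgcs1: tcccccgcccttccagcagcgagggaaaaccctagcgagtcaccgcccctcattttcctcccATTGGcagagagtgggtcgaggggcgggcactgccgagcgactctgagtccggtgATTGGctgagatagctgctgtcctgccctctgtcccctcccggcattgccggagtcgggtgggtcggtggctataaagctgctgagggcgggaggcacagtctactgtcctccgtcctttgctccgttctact
Msmo1: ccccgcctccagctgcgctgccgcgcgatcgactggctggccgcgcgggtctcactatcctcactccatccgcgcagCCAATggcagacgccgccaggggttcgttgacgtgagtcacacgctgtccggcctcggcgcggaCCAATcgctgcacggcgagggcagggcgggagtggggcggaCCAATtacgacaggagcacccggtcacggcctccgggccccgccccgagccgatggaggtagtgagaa
Cyp51: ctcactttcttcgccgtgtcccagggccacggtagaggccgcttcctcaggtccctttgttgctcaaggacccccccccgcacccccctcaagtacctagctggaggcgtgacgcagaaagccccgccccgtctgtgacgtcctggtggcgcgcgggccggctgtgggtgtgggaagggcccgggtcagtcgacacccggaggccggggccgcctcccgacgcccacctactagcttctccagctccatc

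Idi1, Fdps and Hmgcs1 each hold 2 matches, Msmo1 holds 3, and Cyp51 holds 0. Of the 21 genes, 16 had 1 promoter in the RefSeq table, and 13 of these held a match (81.2%), Lss included. The share was 35.3% over the 9688 tested genes with 1 promoter and 34.0% over all 33469 promoters of the same length. Among proteasome promoters 10 of 18 held CCAAT, among those of the nuclear respiratory chain 4 of 17, and among those of fibrous matrix genes 4 of 13. Among those of the cytosolic ribosome 2 of 12 held it. In all, 8 motifs were searched on both strands. TCACNCCAC, a core of the sterol regulatory element, was in 0 of the 16 sterol promoters and in 0.974% of all promoters. CTTCCG, a core bound by ETS factors, was in 0 of the 16, in 10 of the 18 proteasome promoters, in 10 of the 17 respiratory chain promoters, in 26.4% of the promoters of tested genes and in 13.9% of all promoters. TGACNNNGC, a core of the antioxidant element, was in 4 of the 16 sterol, 5 of the 18 proteasome and 4 of the 17 respiratory chain promoters. It was also in 2 of the 12 ribosomal and 0 of the 13 fibrous matrix promoters. The share was 12.4% over the promoters of tested genes and 10.1% over all promoters. A match describes letters in this window only.

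The sterol-sensing genes had no common direction. Of 14 measured, 1 was higher and 1 lower at an unadjusted p under 0.05 (5.61% and 2.85% of all genes), and the median was −0.02. Insig1 measured 91.2, 83.1 and 116 CPM in Gel, 381, 595 and 369 CPM in ALN gel and 78.2, 142 and 158 CPM in Mg-ALN gel. All ALN gel libraries were above the rest, while Mg-ALN gel overlapped Gel. Its log2 fold changes were 2.21 (SE 0.33) and 0.38 (SE 0.32), and the test of their difference gave an unadjusted p of 0.000335 in edgeR. Abca1, which exports cholesterol from cells, measured 159, 442 and 354 CPM in Gel, 123, 132 and 116 CPM in ALN gel and 214, 127 and 225 CPM in Mg-ALN gel. The Mg-ALN gel libraries overlapped the low Gel library, and the joint value was −1.06 (SE 0.31).

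Enzymes that attach isoprenoids to proteins and the small GTPases that carry them had a median of 0.10 over 13 genes. At an unadjusted p under 0.05, 1 was higher and 1 lower, against 5.61% and 2.85% of all genes. Pggt1b, the catalytic subunit of an enzyme that attaches geranylgeranyl groups to small GTPases, measured 16.9, 17.5 and 15.4 CPM in Gel, 12.6, 9.48 and 11.4 CPM in ALN gel and 10.6, 12.7 and 10.8 CPM in Mg-ALN gel. All 6 alendronate-bearing libraries were below Gel, at −0.56 (SE 0.19). Rabggtb, a subunit of the enzyme that modifies Rab proteins, was at 0.56 (SE 0.24) with overlapping groups.

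The sterol result moved little with the processing. The median was 0.50 with 11 genes higher after the trend with gene length was removed, and 0.52 with 9 genes higher when the mitochondrial share was a covariate. Leaving out each library in turn gave medians of 0.41 to 0.58 with 8 to 12 genes higher.

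Among protein-coding genes with a mean of at least 2 CPM, 12432 in number, 564 had all 6 alendronate-bearing libraries above Gel and 239 had all 6 below. The 12 with the smallest p on each side are described here. All 24 had an edgeR adjusted p of 0.568. All 24 were called by DESeq2, against 0.259% of all genes called higher and 0.116% called lower. DESeq2 read the same counts by which the 24 were chosen, so its calls are no separate support. Since they were chosen for groups that do not overlap, their sign says nothing of stability. In 5 of them (Ccl9, Emc4, Msantd3, Msmo1 and Pdk4) the ALN gel and Mg-ALN gel differed at an unadjusted p under 0.05, against 9.19% of all genes. Idi1, Cyp51 and Msmo1 of the 12 higher genes are sterol synthesis genes.

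Ccl9, a chemokine made by myeloid cells and by osteoclasts in rodents, had the largest difference of the 24 and lies at 10:70783424-70788309. It measured 35.2, 36.5 and 32.2 CPM in Gel, 529, 363 and 155 CPM in ALN gel and 90.0, 69.9 and 86.9 CPM in Mg-ALN gel. Gel was narrow, every Mg-ALN gel library was above it, and every ALN gel library was above all others. The joint log2 fold change was 2.29 (SE 0.37), from 3.33 (SE 0.41) with ALN gel and 1.25 (SE 0.38) with Mg-ALN gel, and these 2 differed at an unadjusted p of 0.000478 in edgeR. The DESeq2 adjusted p of the joint value was 3.74e-06.

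Emc4, a subunit of the complex that inserts proteins into the endoplasmic reticulum membrane, measured 47.3, 43.7 and 23.8 CPM in Gel, 218, 174 and 117 CPM in ALN gel and 53.8, 89.3 and 88.2 CPM in Mg-ALN gel. Its joint value was 1.58 (SE 0.32), and it overlaps another gene. Timm17a, part of the import channel of the inner mitochondrial membrane, had 3 Gel values of 26.3 to 27.0 CPM against 41.2 to 60.7 CPM in the other 6 libraries. Nxt1, a cofactor of messenger RNA export, was at 1.07 (SE 0.21). Mecr, a reductase of mitochondrial fatty acid synthesis, was at 1.23 (SE 0.26). LOC100362027 and AABR07066818.1, which the table describes as copies related to ribosomal proteins L30 and S2, were at 1.82 and 1.21, and reads of the parent genes may be counted there. Msantd3 was at 0.84 (SE 0.18), from 1.24 with ALN gel and 0.44 with Mg-ALN gel, which differed at an unadjusted p of 0.00337 in edgeR. Its Mg-ALN gel 1 library, at 19.5 CPM, was just above Gel 1, at 19.2 CPM. RGD1563365, which the table relates to a NOP protein chaperone, was at 0.96 (SE 0.21).

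Flrt2, an adhesion protein that guides axons and vessels and is found in mesenchymal cells, measured 23.5, 23.2 and 22.4 CPM in Gel, 7.21, 12.8 and 13.5 CPM in ALN gel and 7.41, 8.58 and 6.54 CPM in Mg-ALN gel. The Gel libraries lay close together and above all others, with a log2 fold change of −1.33 (SE 0.23) and a DESeq2 adjusted p of 0.000737. Abca9, a transporter of the ABC family, measured 7.47, 7.11 and 8.46 CPM in Gel against 1.63 to 3.89 CPM in ALN gel and 0.788 to 1.78 CPM in Mg-ALN gel, a log2 fold change of −1.98 (SE 0.39). Pdk4, the kinase that shuts down pyruvate oxidation, measured 4.13, 9.42 and 6.02 CPM in Gel, 2.02, 2.32 and 4.01 CPM in ALN gel and 0.631, 0.893 and 1.59 CPM in Mg-ALN gel. The highest ALN gel library of Pdk4 was just below the lowest Gel library, and the Mg-ALN gel libraries were lower still.

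Ciita, the master regulator of MHC class II genes, measured 18.2, 21.5 and 19.9 CPM in Gel, 12.3, 16.3 and 10.3 CPM in ALN gel and 9.77, 8.99 and 10.5 CPM in Mg-ALN gel, a log2 fold change of −0.82 (SE 0.20). Gpr171, a receptor of lymphocytes, was at −0.98 (SE 0.23) and lies within Med12l. Regulators of small GTPase signalling were Arhgap39 at −0.85 (SE 0.17), Arhgef10l at −0.62 (SE 0.14) and Rassf2 at −0.83 (SE 0.19). Epb41l2, which links membrane proteins to the actin skeleton, was at −0.96 (SE 0.23), the phosphatase gene Ptp4a1 at −0.99 (SE 0.23) and the Rab regulator Dennd4b at −0.80 (SE 0.16).

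**Figure D2:**
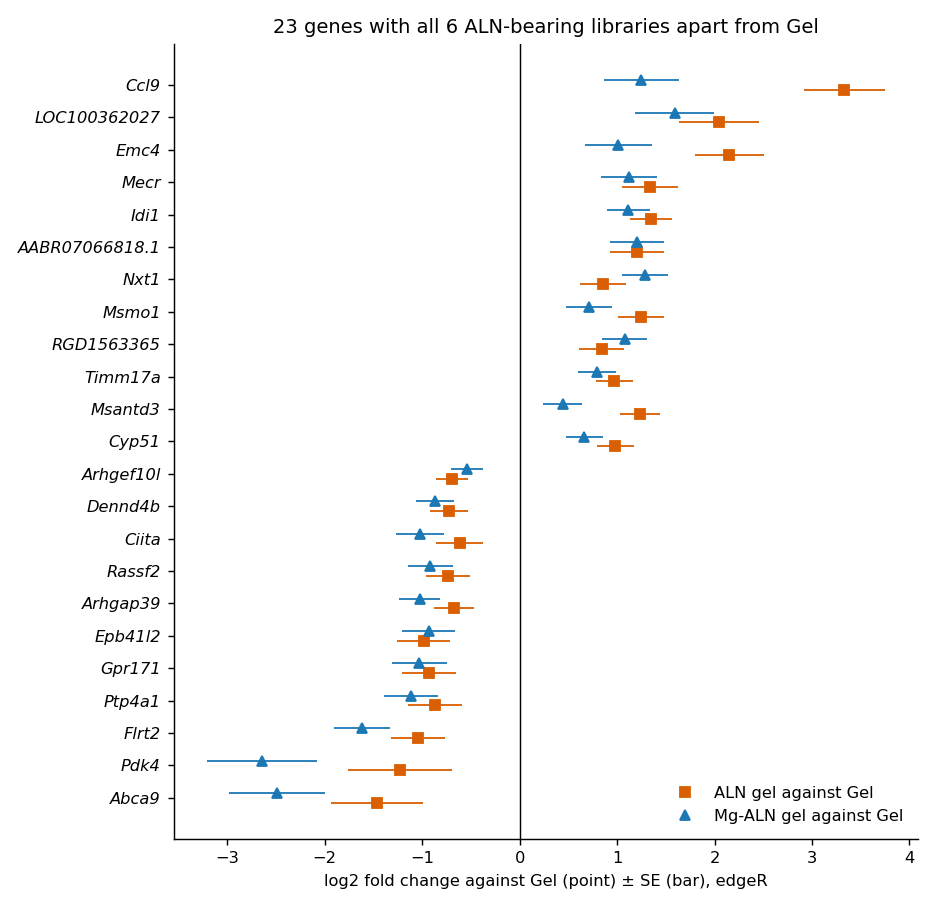
Log2 fold change against Gel (point, horizontal axis) and its SE (bar), from edgeR, for 23 of the 24 genes with the smallest p among those in which all 6 alendronate-bearing libraries lay apart from Gel. Squares are ALN gel and triangles Mg-ALN gel, which share the Gel libraries. The arms lie farthest apart for Ccl9, at 3.33 and 1.25.

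Genes of the proteasome, the complex that degrades tagged proteins, had small positive values. All 20 measured subunits had a positive value, 13 were higher at an unadjusted p under 0.05, and in 13 all 6 libraries lay above Gel. Over all genes these shares were 5.61% and 3.88%, and among the shortest genes, described below, 14.97% and 9.51%. The median was 0.51, from 0.47 with ALN gel and 0.54 with Mg-ALN gel, and 0 of the 20 differed between these at an unadjusted p under 0.05. Psma2, a subunit of the outer ring, measured 75.3, 73.8 and 61.9 CPM in Gel, 125, 98.8 and 90.7 CPM in ALN gel and 133, 104 and 105 CPM in Mg-ALN gel. Psmb4, of the inner ring, measured 122, 137 and 116 CPM in Gel, 238, 210.0 and 153 CPM in ALN gel and 301, 182 and 179 CPM in Mg-ALN gel. Psmd14, the enzyme of the lid that removes ubiquitin, measured 36.6 to 45.3 CPM in Gel and 53.2 to 67.6 CPM in the other 6 libraries. Their log2 fold changes were 0.63 (SE 0.18), 0.75 (SE 0.24) and 0.51 (SE 0.15), and Gel overlapped with none of the other libraries in these 3 genes.

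Nuclear genes of the respiratory chain, which feeds electrons to oxygen in mitochondria, were positive in 19 of 19, with 12 higher at an unadjusted p under 0.05 and 5 with all 6 libraries above Gel, against 5.61% and 3.88% of all genes. The median was 0.53, from 0.86 with ALN gel and 0.28 with Mg-ALN gel, and 10 of the 19 differed between the arms at an unadjusted p under 0.05, against 9.19% of all genes. Cox4i1, a subunit of cytochrome oxidase, measured 297, 228 and 200.4 CPM in Gel, 582, 552 and 374 CPM in ALN gel and 507, 301 and 341 CPM in Mg-ALN gel, with Mg-ALN gel 2 just above Gel 1. Cox4i1 was at 0.86 (SE 0.26) and Ndufa4, a small subunit of the same complex, at 0.99 (SE 0.30). Cycs, cytochrome c, was at 1.04 with ALN gel and 0.30 with Mg-ALN gel.

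Genes of the cytosolic ribosome were positive in 16 of 17, with 10 higher and 0 lower at an unadjusted p under 0.05 and 3 with all 6 libraries above Gel, against 5.61% higher and 3.88% above over all genes, and the median was 0.74. Rps3, a protein of the small subunit, measured 749, 624 and 498 CPM in Gel, 1441, 1380.0 and 941 CPM in ALN gel and 1341, 829 and 1041 CPM in Mg-ALN gel. Rps19 was at 0.92 (SE 0.31), while Rps6 was at −0.79 (SE 0.38). All 13 mitochondrially encoded genes were positive with a median of 1.31, but 1 passed an unadjusted p under 0.05. Without Gel 1 the median was 2.41 with 9 genes higher, and without ALN gel 1 it was 0.78 with 0.

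Members of these 3 lists are short. The median length was 1121 bases for the proteasome, 1200.0 for the respiratory chain and 780.0 for the ribosome, against 2240.0 over all genes and 2983 for isoprenoid and sterol synthesis. Over all 15460 genes, the joint log2 fold change was lower in longer genes, with a Spearman coefficient of −0.33 across genes, which are not independent replicates. When genes were split by length into 5 equal groups, the median was 0.29 in the shortest group, where 9.51% had all 6 libraries above Gel. In the longest group the median was −0.26 and that share was 0.259%. The slope of log2 CPM deviation on log2 length was 0.0927 ± 0.0516 (SD, n = 3) in Gel, −0.0322 ± 0.112 (n = 3) in ALN gel and −0.0605 ± 0.131 (n = 3) in Mg-ALN gel. An exact two-sided permutation test over all 84 splits gave p = 0.0476, or 0.0952 after adjustment over 4 library measures, where 0.0238 is the smallest p possible.

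With the length trend removed, the proteasome median was 0.24 with 6 genes higher, the respiratory chain 0.35 with 5 and the ribosome 0.48 with 6. The counts also rested on single libraries. Without Gel 3, 0 of the 20 proteasome genes, 1 of the 19 respiratory genes and 0 of the 17 ribosomal genes had an unadjusted p under 0.05. The proteasome count was 6 without Gel 2 or ALN gel 2 and 8 without ALN gel 1 or Mg-ALN gel 2. The respiratory count was 6 without Gel 2 and 4 without ALN gel 2, and the ribosomal count was 1 without Gel 2, 6 without ALN gel 2 and 16 without Gel 1. The medians of the 3 lists stayed between 0.41 and 0.92 with any 1 library left out. When the model held the mitochondrial share, the proteasome median was 0.48 with 5 genes higher. Among the 24 named genes the 12 higher ones had a median length of 1297 bases and the 12 lower ones one of 3706 bases. The part of transcript length and of mitochondrial content in these differences was not tested further.

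**Figure D3:**
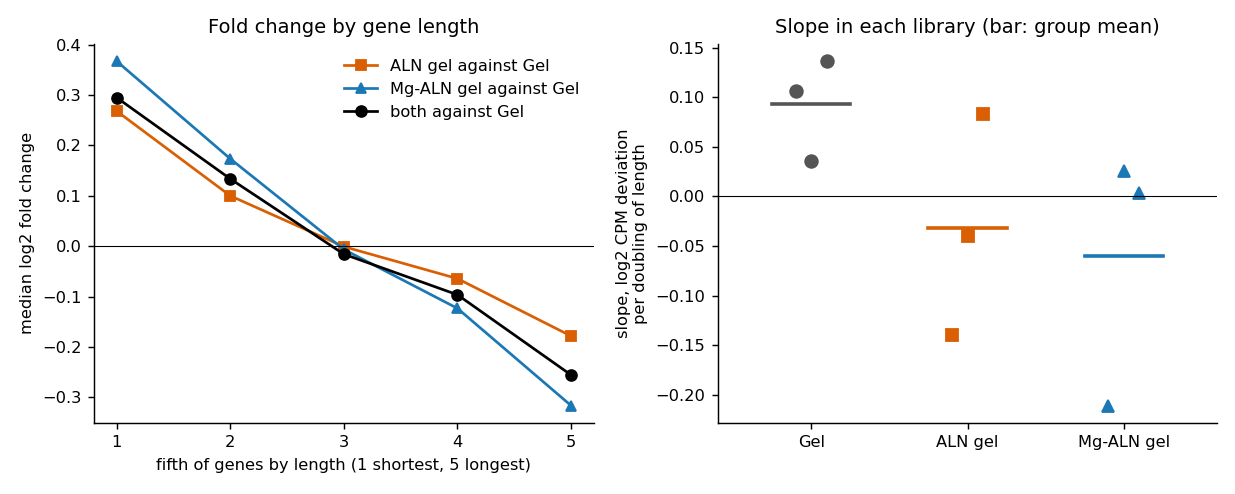
Left, median log2 fold change against Gel in 5 equal groups of genes ordered by length, for both gels, ALN gel and Mg-ALN gel. Right, slope of log2 CPM deviation per doubling of gene length in each library, with the group mean as a bar. The joint median falls from 0.29 in the shortest group to −0.26 in the longest, and ALN gel 3 lies within the range of the Gel libraries.

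Most matrix genes had negative values, and the list was not uniform. Of 24 fibrous matrix genes 6 had a positive value, 1 was lower at an unadjusted p under 0.05 (background 2.85%) and in 2 all 6 libraries lay below Gel (background 1.77%). Their median was −0.32, from −0.54 with ALN gel and −0.05 with Mg-ALN gel. It lay between −0.73 (without ALN gel 3) and −0.11 (without ALN gel 1) with 1 library left out. These genes are long, with a median length of 4623.5 bases, and in the longest group of all genes 22.6% had a positive value. With the length trend removed the list's median was −0.09, with 0 genes lower at an unadjusted p under 0.05. Col1a1 measured 97454, 38606 and 47262 CPM in Gel, 10756, 21141 and 29177 CPM in ALN gel and 26548, 30834 and 33366 CPM in Mg-ALN gel. All 6 alendronate-bearing libraries were below Gel, and Gel 1 was far above the other Gel libraries. The log2 fold change was −1.30 (SE 0.53), with an edgeR adjusted p of 0.575, and −0.79 without Gel 1. As a share of counts, Col1a1 was 6.56% ± 2.87 (SD, n = 3) in Gel, 2.09% ± 1.25 with ALN gel and 2.89% ± 0.493 with Mg-ALN gel. The exact permutation test of that share gave p = 0.0238, the smallest possible, and 0.0952 after adjustment over 4 measures.

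Col5a2, a chain of type V collagen, was at −0.60 (SE 0.34) with all 6 libraries below Gel. The gap was narrow, at 1378 CPM in ALN gel 3 against 1389 CPM in Gel 2. Col11a1, which is found in cartilage and bone, was at −1.20 (SE 0.34), also without overlap. Col11a1 was at −0.60 when the library with the highest mitochondrial share of each group was left out. Col3a1, the type III collagen of early repair tissue, was at −0.07 (SE 0.76), with 6185 to 15326 CPM in Gel, 926 to 18624 CPM in ALN gel and 12286 to 18081 CPM in Mg-ALN gel. Postn, a matrix protein of activated periosteal cells, was at −0.31 (SE 0.50) with overlapping groups. The direction of Col3a1 and Postn turned with the mitochondrial share as a covariate, and so did the median of the fibrous matrix list, to 0.24.

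Genes that fold, process and cross-link collagen had a median of −0.39 over 25 genes, with 4 positive and 3 lower at an unadjusted p under 0.05 (2.85% of all genes). That count was 1 without Gel 1, 5 without Gel 2, 7 without Gel 3 and 11 without ALN gel 3. Creb3l1, a transcription factor of bone-forming cells that drives collagen secretion, measured 256, 201 and 200.5 CPM in Gel, 44.1, 106 and 77.96 CPM in ALN gel and 173, 168 and 161 CPM in Mg-ALN gel. Gel was highest, Mg-ALN gel lay between and ALN gel was lowest, with no overlap between any of the 3 groups. The arms were at −1.53 (SE 0.30) and −0.39 (SE 0.30), a difference with an unadjusted p of 0.00436 in edgeR. Bmp1, which trims procollagen, was at −0.68 (SE 0.20) with all 6 libraries below Gel, and at −0.49 without Gel 1. Adamts2, which removes the other propeptide, was at −0.99 (SE 0.40) with overlap.

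TGF-β drives fibrosis and is stored in the matrix in a latent form that integrins release. Of 18 genes for its ligands, receptors, latency proteins and SMADs, 5 were positive, 2 were lower at an unadjusted p under 0.05 and in 3 all 6 libraries lay below Gel, against 2.85% and 1.77% of all genes. The median was −0.24, ran from −0.49 without ALN gel 3 to −0.05 without ALN gel 1, and was −0.01 with mitochondrial share in the model. The median length of these genes was 4103 bases. With the length trend removed the list's median was −0.19, with 1 gene lower at an unadjusted p under 0.05. Itgb8, a subunit of an activating integrin, measured 2.70, 4.57 and 4.70 CPM in Gel, 0.776, 1.51 and 1.94 CPM in ALN gel and 0.552, 1.49 and 0.572 CPM in Mg-ALN gel, a log2 fold change of −1.84 (SE 0.50) from low counts. Smad3, which carries the signal to the nucleus, measured 91.0, 51.9 and 45.5 CPM in Gel, 39.3, 43.1 and 38.8 CPM in ALN gel and 35.6, 39.1 and 36.8 CPM in Mg-ALN gel. All 6 were below Gel, at −0.70 (SE 0.22), and at −0.33 without Gel 1. Smad4 was at −0.58 (SE 0.29), without overlap. Tgfb1 was at −0.36 (SE 0.21) with overlapping groups.

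Genes that respond to TGF-β had no common direction, with a median of −0.05 over 16 genes and 0 at an unadjusted p under 0.05 in either direction. Ccn2, a target often read as a measure of fibrosis, was at 0.09 (SE 0.69), with 337 to 595 CPM in Gel, 209.6 to 870.2 CPM in ALN gel and 151 to 1071 CPM in Mg-ALN gel. Acta2, the smooth muscle actin of myofibroblasts, was at −0.38 (SE 0.73), from −1.24 with ALN gel and 0.48 with Mg-ALN gel. BMP signalling genes had a median of −0.53 and genes of the Wnt pathway one of −0.52. At an unadjusted p under 0.05, 0 of 18 and 2 of 26 were lower, against 2.85% of all genes. With mitochondrial share in the model these medians were −0.13 and −0.08, and the Wnt median was −0.18 without Gel 1. The BMP median was −0.35 without Mg-ALN gel 3. In the Wnt list Ccnd1, a cyclin that starts the cell cycle, was at 0.87 (SE 0.33), and Tcf7, a transcription factor of the pathway, was at −1.08 (SE 0.45), and at −0.31 without Gel 1. Igfbp5 and Pappa1, a binding protein of insulin-like growth factors and the protease that frees them, were at −0.69 (SE 0.28) and −1.59 (SE 0.50). Igfbp5 was at −0.34 without Gel 1.

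**Figure D4:**
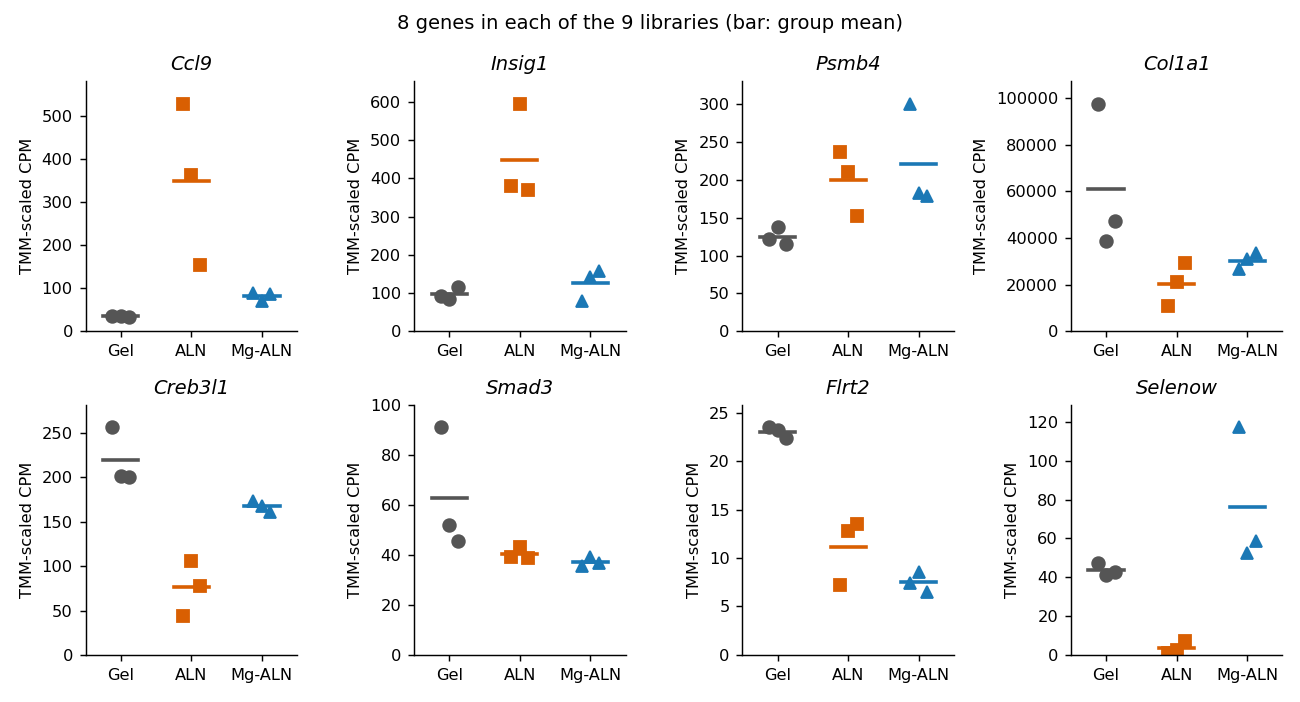
TMM-scaled CPM of 8 genes in each library, with the group mean as a bar and every axis starting at 0. Ccl9 and Psmb4 are above Gel in all 6 alendronate-bearing libraries, Col1a1, Creb3l1, Smad3 and Flrt2 are below Gel in all 6, Insig1 is high in ALN gel only, and Selenow lies on opposite sides of Gel in the 2 groups.

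Osteoclast genes differed between the gels in 9 of 14, and osteoblast and osteocyte genes in 1 of 15 and 1 of 9, at an unadjusted p under 0.05, against 9.19% of all genes. In whole tissue, fewer cells of a type and less RNA per cell cannot be told apart. All 14 osteoclast genes tested had a positive joint value, with a median of 0.57 but 0 at an unadjusted p under 0.05. The median was 1.45 with ALN gel and −0.10 with Mg-ALN gel. The summed level of the 15 markers was 2511 to 19067 CPM in Gel, 22515 to 32997 CPM in ALN gel and 4061 to 13071 CPM in Mg-ALN gel, with no marker at 0 in all libraries. Ctsk, the collagen-cutting protease of osteoclasts, was at 1.03 (SE 0.68) and Acp5, the tartrate-resistant phosphatase, at 0.30 (SE 0.77). Mmp9 and Tnfrsf11a, the gelatinase and the receptor RANK, were at 1.43 (SE 0.69) and 0.82 (SE 0.37). Tcirg1, a subunit of the proton pump that acidifies the resorption pit, was at 1.06 with ALN gel and −0.04 with Mg-ALN gel. Without Gel 1 the list had a median of 1.47 with 8 genes higher.

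Osteoblast and mineralization genes were negative in 14 of 15, with 3 lower at an unadjusted p under 0.05 and a median of −1.07. Over all genes 47.3% were positive and 2.85% were lower at that threshold. Without Gel 1 the median of the osteoblast list was 0.18, so its direction rests on 1 library. Phex, an enzyme of phosphate control in bone cells, measured 47.5, 8.58 and 7.08 CPM in Gel, 7.60, 1.38 and 7.47 CPM in ALN gel and 1.81, 0.655 and 5.84 CPM in Mg-ALN gel. Its log2 fold change was −2.43 (SE 0.81), and −1.01 without Gel 1. Smpd3, Dlx3 and Irx5, other genes of bone formation, went from −2.25, −1.48 and −0.90 to −0.22, −0.07 and −0.09 without that library. Bglap was at −1.16 (SE 1.18) and at 0.95 without it. Sost, the osteocyte inhibitor of bone formation, measured 1.85, 0.282 and 0.313 CPM in Gel, 9.23, 4.46 and 6.93 CPM in ALN gel and 0.236, 0.119 and 0.762 CPM in Mg-ALN gel. ALN gel was above the other groups, which overlapped, and its joint value of 0.99 (SE 0.80) averages 3.08 and −1.09.

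Cartilage genes had a median of −1.39, which became 0.40 without Gel 3, and skeletal muscle genes one of −2.38, which became 2.31 without Gel 3. Neutrophil genes had a median of 1.41 over 14 genes and erythroid genes one of 0.88 over 12, both with 0 at an unadjusted p under 0.05. The erythroid median ran from 0.34 without Gel 2 to 2.80 with 3 genes higher without Gel 1. The neutrophil median ran from 0.74 without Mg-ALN gel 1 to 1.64 with 6 genes higher without Mg-ALN gel 2. Summed neutrophil markers were at 202 to 1430.1 CPM in Gel, 200.3 to 697 CPM in ALN gel and 1097 to 8926 CPM in Mg-ALN gel. Macrophage and T-cell lists had medians of −0.16 and −0.03. Endothelial genes had a median of 0.15, with Emcn, a sialomucin of capillary walls, at 0.56 (SE 0.24).

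**Figure D5:**
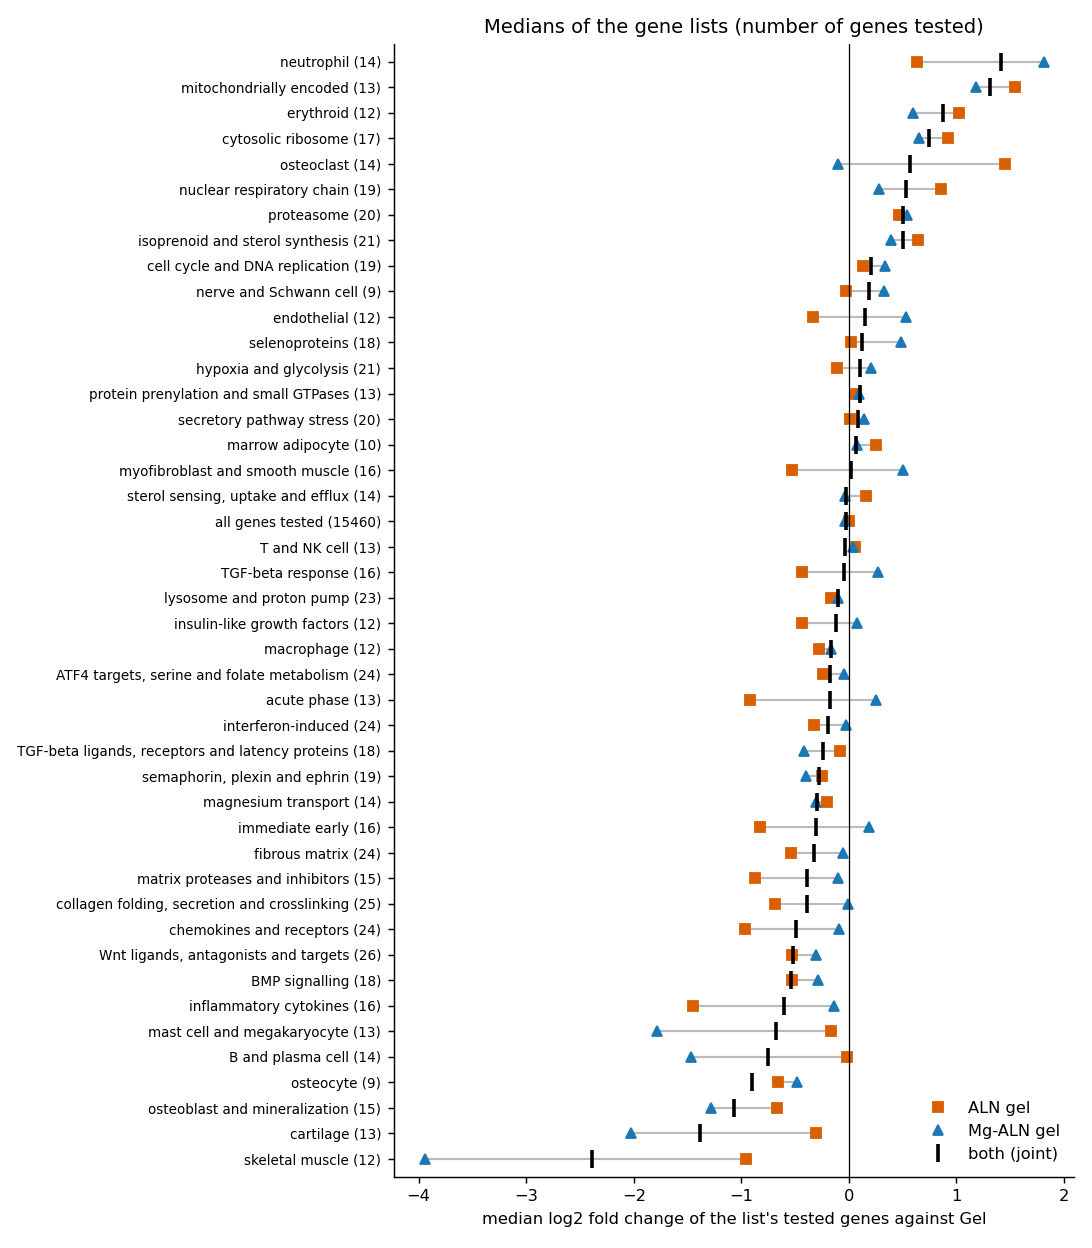
Median log2 fold change against Gel of the tested genes of each of the 43 lists and of all genes tested, with the number of genes in brackets. Squares are ALN gel, triangles Mg-ALN gel and black ticks the joint value. The 2 arms lie near each other for the proteasome, at 0.47 and 0.54, and far apart for osteoclast genes, at 1.45 and −0.10.

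Most inflammatory genes had negative values, and the medians of their lists depended on the setting. Cytokines had a median of −0.60 with 3 of 16 positive, and chemokines and their receptors one of −0.49 with 3 of 24 positive, and no gene of either list was lower at an unadjusted p under 0.05. Ccl9 was the 1 gene of the chemokine list that was higher at an unadjusted p under 0.05, against 5.61% of all genes. With 1 library left out the cytokine median was −1.43 (without ALN gel 2) to −0.24 (without Gel 2) and the chemokine median −0.89 (without Gel 1) to −0.20 (without Gel 2). With mitochondrial share in the model they were 0.04 and −0.12. Of 24 interferon-induced genes 2 were lower at an unadjusted p under 0.05 (2.85% of all genes), with a median of −0.19. Oasl2, an antiviral protein, measured 21.1, 31.6 and 46.4 CPM in Gel, 15.7, 20.5 and 11.3 CPM in ALN gel and 10.1, 17.6 and 10.3 CPM in Mg-ALN gel. All 6 libraries were below Gel, at −1.22 (SE 0.31). Gbp2, an interferon-induced GTPase, was at −1.26 (SE 0.40), and at −0.69 without Gel 3. Nr4a3, an immediate early nuclear receptor, was at −2.34 (SE 0.75), and at −0.55 without Gel 2. Ptx3, a pattern recognition protein of inflamed tissue, was at −2.14 (SE 0.61), and at −0.84 without Gel 2. Serpina3n, an acute phase protease inhibitor, was at −1.72 (SE 0.52), from −3.15 with ALN gel and −0.30 with Mg-ALN gel, a difference with an unadjusted p of 0.00208 in edgeR.

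Stress and metabolic lists held single genes rather than group differences. Secretory pathway stress genes had a median of 0.08. Manf, a protective factor of the endoplasmic reticulum, was at 0.68 (SE 0.24) and Sdf2l1, of the same list, at 0.85 (SE 0.32). In both all 6 libraries lay above Gel, in Manf narrowly, at 148.8 CPM in ALN gel 3 against 147.9 CPM in Gel 2. Both are short, at 844 and 1064 bases, and were at 0.35 and 0.53 with the length trend removed. Herpud1, which serves the removal of misfolded proteins, was at −0.57 (SE 0.25), and at −0.33 without Gel 1. Pfkp, a phosphofructokinase of glycolysis, was at 0.97 (SE 0.29) in a list with a median of 0.11. Aldh1l2, a mitochondrial folate enzyme, was at −0.67 (SE 0.21), from −1.20 with ALN gel and −0.14 with Mg-ALN gel, whose libraries overlapped Gel. These arms differed at an unadjusted p of 0.00195 in edgeR. Magnesium transport genes had a median of −0.30 with 0 of 14 at an unadjusted p under 0.05. Slc41a1, a magnesium exporter, was at −0.74 (SE 0.34), and Trpm7, a magnesium channel with a kinase domain, was at −0.60 (SE 0.35), from −0.17 with ALN gel and −1.02 with Mg-ALN gel.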

How the data were processed

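Whole-tissue poly-A RNA of 9 rat fracture samples, 3 per group, was analysed from the gene count table that the authors deposited, whose values are raw read counts per gene. The FPKM values that the authors deposited were used only to compare levels between genes. The submitters' processing notes name HISAT2 2.0.5, StringTie 1.3.3b and featureCounts 1.5.0-p3, with no role or order, and the genome build is not given in the sources used here. The labels' protocols do not mention strand marking, so reads of overlapping and antisense genes cannot be separated, nor can those of near-identical copies.

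Counts were scaled by TMM and fitted with edgeR 4.0.16 (R 4.3.3) as 3 groups in 1 quasi-likelihood model after its expression filter left 15460 genes. The contrast was the mean of the ALN gel and Mg-ALN gel effects against Gel, with Benjamini-Hochberg adjustment over all genes and a threshold of 0.05. DESeq2 1.42.0, limma 3.58.1 (voom), other scaling, no filter, the replicate number as a block, composition covariates and leaving out libraries were alternatives. Library measures were compared by exact two-sided permutation tests. Libraries carry the numbers 1 to 3 in every group, with no stated meaning. Deviations from the group means correlated at 0.34, 0.42 and 0.23 between same-numbered Gel and ALN gel libraries. Between differently numbered ones of these 2 groups the correlations were −0.28 to −0.01. Same-numbered pairs with Mg-ALN gel gave −0.20 to 0.13. The joint comparison thus holds such pairing in its ALN gel part, and the main fit did not model it. The alternative with the block gave the replicate number a term over all 9 libraries, Mg-ALN gel included. The scripts were tested on simulated data. Total counts of 13388689 to 18763270 limited the precision of genes at a few CPM, and the closest pair of libraries in a group still differed beyond counting noise (chi-square per degree of freedom 72.3).

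The named genes were the 12 higher and 12 lower protein-coding genes with the smallest joint p among those with a mean of at least 2 CPM and no overlap between the 6 and the 3 libraries, 13 chosen genes, and up to 3 members of each list with the smallest joint p. Other list members named beside them (Hmgcs1, Pmvk, Mvd, Fdft1, Sqle, Lss, Sc5d, Dhcr7 and Rps6) were chosen after their values were seen. The comparison and the 43 lists were chosen with earlier results of these data known. Of 775 list entries, 752 matched the table, 736 of them by symbol, and 710 were tested. The values of a few single genes covered by these rules are not reported here. Lists are described by counts and medians without a test.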

Additional observations from a re-analysis of the deposited data

Results flagged for a closer look

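Selenow, a small muscle and bone selenoprotein, lay on opposite sides of Gel in the 2 alendronate-bearing groups. It measured 47.4, 41.2 and 42.9 CPM in Gel, 1.01, 2.51 and 7.29 CPM in ALN gel and 117, 52.7 and 58.9 CPM in Mg-ALN gel. Every ALN gel library was below, and every Mg-ALN gel library above, all Gel libraries. The log2 fold changes against Gel were −3.59 (SE 0.64) and 0.80 (SE 0.57), which share the Gel libraries, and the Mg-ALN gel minus ALN gel difference was 4.39 on the log2 scale. Its unadjusted p in edgeR was 9.58e-05, and 0 genes passed an adjusted p of 0.05 in that comparison, where 1421 genes (9.19%) had an unadjusted p under 0.05, DESeq2 called 184 and limma-voom called 2. The joint value of −1.40 (SE 0.48) is therefore a mean of opposite directions.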

How the results depend on the processing

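The count of genes called depended on the tool. In the joint comparison DESeq2 called 58 genes and limma-voom 3, against 0 in edgeR, and against Gel the ALN gel had 133 by DESeq2 and 263 by limma-voom. The Mg-ALN gel had 51 against Gel by DESeq2, and against ALN gel DESeq2 called 184 and limma-voom 2. Leaving out each library gave 0 to 1 calls for ALN gel against Gel, the 1 without ALN gel replicate 3. The cause was not tested.

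The replicate block gave 0 calls in the joint comparison and in each of the other 3 comparisons, so it changed no call of theirs. In the joint comparison it moved the genes at an unadjusted p under 0.05 from 867 higher and 440 lower to 1025 and 594.

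Over 100 single genes and 20 settings each, 1952 of 2000 values kept their side and direction, 27 passed the threshold that the main value missed, and 21 values in 6 genes turned direction. Most of these genes were picked for a small joint p in the same libraries or after their values were seen. Their direction was thus likely to hold, and the count of 1952 is no measure of stability. Ccn2 turned with limma-voom (−0.81), with the replicate block (−0.071) and over the left-out libraries (−0.62 to 0.36). Col3a1 turned with the mitochondrial share (0.71) or the muscle score (0.052) as a covariate, with the 6 libraries as 1 group (0.00280), with the length trend removed (0.10) and over the left-out libraries (−0.75 to 0.20). With the mitochondrial share as a covariate Acta2 (0.55) and Postn (0.093) turned, and over the left-out libraries Postn (−0.61 to 0.031), Bglap (−1.69 to 0.95) and Acp5 (−0.22 to 2.27) did. Removing the length trend and leaving out the library of highest mitochondrial share in each group, where Bglap was at 0.79, were chosen after seeing the data. Depth limits genes at a few CPM, such as Itgb8 and Sost.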

Other observations

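Lysosome and proton pump genes had a median log2 fold change of −0.10 over 23 genes. At an unadjusted p under 0.05, 4 were higher and 0 lower, against 5.61% and 2.85% of all genes. Without Gel 3, 0 were higher at that threshold. Ctsz, a cathepsin of myeloid cells, measured 771, 851 and 566 CPM in Gel, 2174, 2024 and 1130.0 CPM in ALN gel and 1306, 737 and 1184 CPM in Mg-ALN gel, at 0.92 (SE 0.32). Atp6v1d, a subunit of the proton pump, measured 157, 124 and 81.6 CPM in Gel, 398, 300.1 and 218 CPM in ALN gel and 141, 144 and 148 CPM in Mg-ALN gel. ALN gel was above the other groups in Atp6v1d, and the arms, at 1.34 and 0.26, differed at an unadjusted p of 0.00536 in edgeR. Of the 18 selenoprotein genes tested, Selenoh was at 0.63 (SE 0.24) with all 6 libraries above Gel and Selenop, the plasma carrier, at −0.56 (SE 0.21) with overlap. Selenop was at −0.22 with ALN gel and −0.90 with Mg-ALN gel, which differed at an unadjusted p of 0.0261 in edgeR. With the length trend removed Selenoh, of 654 bases, was at 0.23 and Selenop, of 609 bases, at −0.96.

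Guidance and adhesion genes held lower members beside Flrt2. Of 19 semaphorin, plexin and ephrin genes 4 were positive and 2 were lower at an unadjusted p under 0.05, with a median of −0.28. Over all genes 47.3% were positive and 2.85% were lower at that threshold. The list's median length was 4977 bases, and in the longest group of all genes 22.6% were positive. With the length trend removed the list's median was −0.12, with 0 genes lower at an unadjusted p under 0.05. Plxnb1, the receptor of semaphorin 4D, was at −1.35 (SE 0.52), and at −0.16 without Gel 1. Ephb2, a receptor of ephrins, was at −0.82 (SE 0.34) with overlapping groups, and at −0.57 without Gel 1. Ncam1, a neural and muscle cell adhesion protein, measured 54.5, 118 and 103 CPM in Gel, 28.7, 52.9 and 71.9 CPM in ALN gel and 26.8, 31.7 and 36.3 CPM in Mg-ALN gel, at −1.19 (SE 0.31), with 1 ALN gel library above the lowest Gel library. Cidea, a lipid droplet protein, was at 1.86 (SE 0.71) from 0.313 to 2.26 CPM in Gel, all below the other 6 libraries. It was the 1 marrow adipocyte gene of 10 tested that was higher at an unadjusted p under 0.05, against 5.61% of all genes.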
